A study of Mus musculus with 4 samples.

Results

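The genes described here encode the nuclear subunits of the mitochondrial respiratory chain and of ATP synthase, with a few of their assembly factors. A gene was taken when a probe set of the array carried exactly 1 gene symbol and that symbol began with Nduf, Uqcr, Cox4, Cox5, Cox6, Cox7, Cox8 or Atp5. This gave 80 of 12393 named genes, read by 149 probe sets, and the probe set with the greatest mean signal on the 4 arrays stood for its gene. By role they are 33 genes of complex I, 8 of complex III, 17 of complex IV, 17 of ATP synthase and 5 assembly factors of complex I. A further 9 symbols of the same form, among them Ndufb4, Ndufa11 and Ndufs6, were read only from probe sets shared with another gene and were left out.

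Liver RNA came from 4 wild-type mice on the C57/BL6 background, all 1 month old. The control group held 2 mice and the starved group 2 mice deprived of food for 24 h, named control 1, control 2, starved 1 and starved 2 below. No gene was altered and no other agent is named in the titles or the treatment field, although the description field speaks of injected mice for the starved group and of mice not injected for the controls. The treatment text speaks of the liver being starved, which is read here as starvation of the mouse. The labels call the samples of a group biological replicates and do not say whether the animals shared a cage, a litter or a day.

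Complexes I, III and IV pass electrons from NADH and ubiquinol to oxygen and pump protons across the inner mitochondrial membrane, and ATP synthase uses the proton gradient to make ATP. Most subunits are encoded in the nucleus, and a small number of core subunits in mitochondrial DNA. In the fasting liver, oxidation of fatty acids feeds electrons into this chain and its ATP supports gluconeogenesis and urea synthesis. Nuclear genes of the chain are known to be controlled together through the factors NRF1, GABP and YY1 and the coactivator Ppargc1a.

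Signals are log2 RMA values, a summary of each probe set on which 1 unit is a 2-fold difference, and a log2 change is the mean of the starved arrays less that of the control arrays. Of the liver markers, 8 of 8 measured hepatocyte genes lay above the array medians of 6.71 to 6.74, and their summed log2 signal was 17.51 to 17.57 on control arrays and 17.48 to 17.58 on starved arrays. Skeletal muscle markers, 10 of 10 measured, all lay below these medians (summed log2 signal 8.72 to 8.81 on control and 8.71 to 8.76 on starved arrays). Of the 6 measured adipocyte markers 5 lay below these medians on average and Fabp4 above them, and their sum was 7.91 to 8.11 on control and 8.26 to 8.59 on starved arrays. The 6 measured pancreatic acinar markers summed to 10.86 to 10.91 on control and 9.80 to 10.06 on starved arrays. Of these only Cela1 was lower on both starved arrays, with a change of -1.31, and the median change of the list was -0.04. The control arrays differed from each other in endothelial markers (11.63 and 10.66 summed, with 11.30 and 11.02 on starved arrays). They also differed in stellate cell markers (12.65 and 11.81 summed, with 12.28 and 12.29 on starved arrays) and in the serum amyloid gene Saa3 (8.77 and 12.36, with 8.74 and 8.76 on starved arrays). Single markers of these lists differed between the groups. Of 8 stellate cell markers 3 were lower and 0 higher on both starved arrays, beside 20.9% and 21.4% of all genes. Among them Col3a1 had a change of -1.53 (limma adjusted p = 0.117). Of 7 endothelial markers 1, Lyve1, was higher on both starved arrays, with a change of 1.81 (limma adjusted p = 0.108), and 0 were lower. Actin probe sets at the 3′ end exceeded those at the 5′ end, a gap that widens as RNA breaks down, by 1.76 to 1.79 on control arrays, 2.06 on starved 1 and 1.85 on starved 2. The same gap for Gapdh was 0.65 and 0.54 on control arrays, 0.86 on starved 1 and 0.48 on starved 2, so that starved 2 lay above the controls by actin and below them by Gapdh. What part these differences play in the values below was not tested. A signal from a piece of liver cannot tell fewer cells of a type from less RNA per cell.

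After 24 h of starvation the respiratory chain genes were close to their control levels. The median log2 change of the 80 genes was 0.05, with quartiles of -0.03 and 0.12, beside a median of 0.0031 and quartiles of -0.12 and 0.13 over all genes tested. Of the 80 genes 0 passed the limma test at an adjusted p of 0.05, where 0.0646% of all genes did. At an unadjusted p under 0.05 limma placed 1 of them higher, Cox6b2, where 5.25% of all genes were higher, and 1 lower, Ndufaf5, where 6.02% were lower. A log2 change of at least 0.3 in either direction was found in 3 of the 80 genes (3.75%), beside 17.3% of all genes. Both starved arrays lay above both control arrays in 27 of the 80 genes (33.8%) and below both in 14 (17.5%), beside 21.4% and 20.9% of all genes. Of the 68 members with a mean signal of 10 or more 0 reached an unadjusted p under 0.05 in limma, beside 372 of the 1851 genes of that brightness on the array (20.1%). Without overlap, 26 of these 68 (38.2%) were higher and 9 (13.2%) lower, beside 27.4% and 29% of the 1851. In both directions together that is 35 of 68 members and 1043 of 1851 genes, so separation was not commoner among the members at that brightness.

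For the probe set used, the limma interval gives the range of change that the spread among these arrays allows. It does not cover the choice of probe set, and other probe sets of some members differed more, as given below. The 95% interval of the limma fit, taken gene by gene, lay inside a 2-fold change either way for 79 of the 80 genes and inside a 1.5-fold change for 76. The exception at 2-fold was Ndufaf5. The 3 others at 1.5-fold were Cox6b2, Cox7c and Ndufs7. The median standard error of a member's change was 0.12. With so few arrays an exact permutation test of a single gene has 0.333 as its smallest p.

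**Figure D1:**
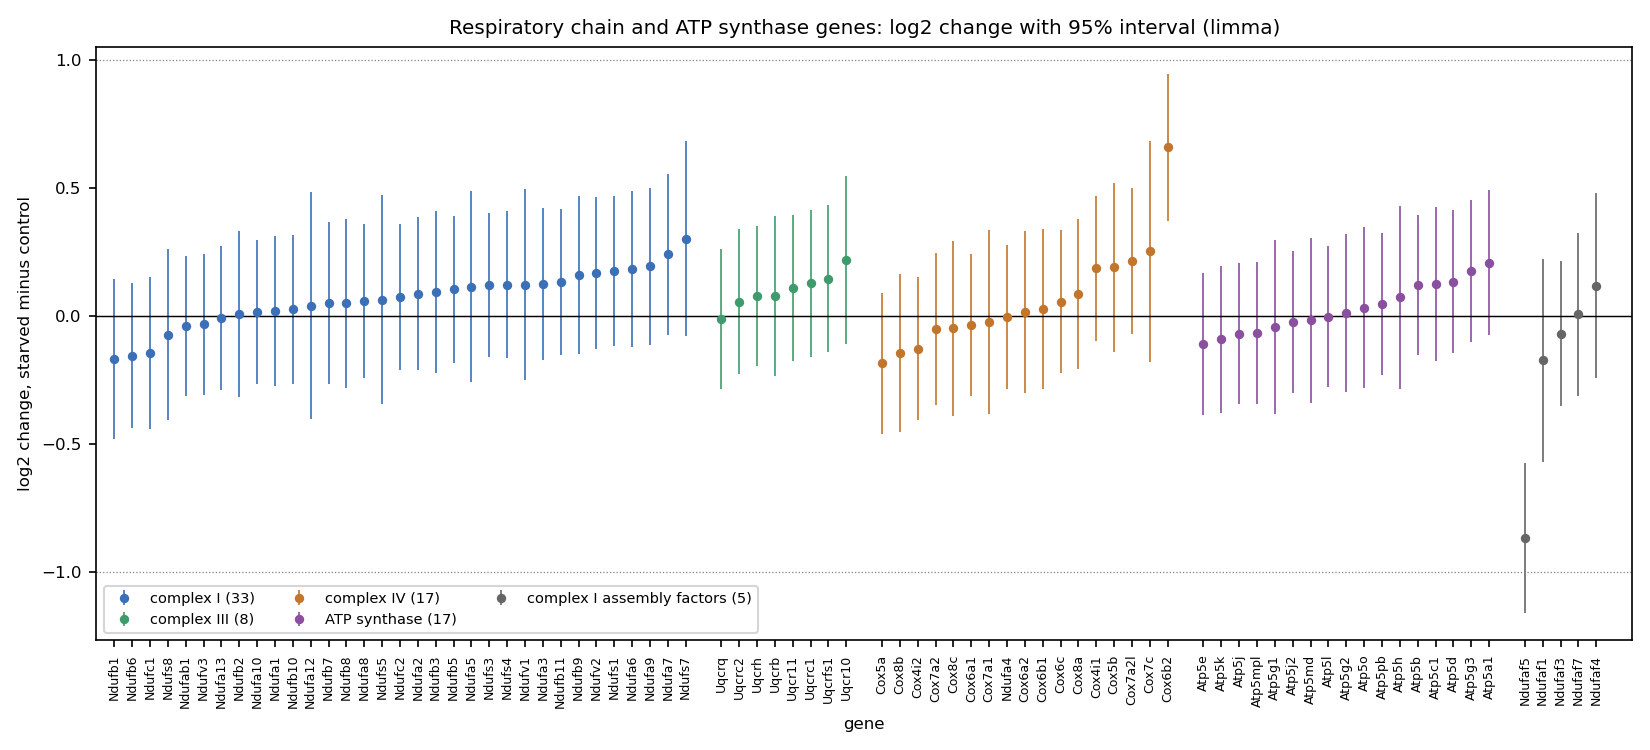
Log2 change (starved minus control) of each of the 80 genes on the vertical axis, ordered by size within complex I, complex III, complex IV, ATP synthase and the assembly factors, with the 95% interval of the limma fit as bars and dotted lines at a 2-fold change. Intervals of 78 genes include 0, Cox6b2 lies above at 0.66 and Ndufaf5 below at -0.87.

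Ndufaf5, a mitochondrial enzyme that hydroxylates an arginine of Ndufs7 during assembly of complex I, had the largest difference. It read 7.33 on control 1, 7.41 on control 2, 6.57 on starved 1 and 6.44 on starved 2. Both starved arrays thus lay below both control arrays, by more than the spread within either group. The starved values were also below the array medians, and the control values above them. The log2 change was -0.87 ± 0.12 (SE, n = 2 per group), a 1.82-fold lower signal (limma adjusted p = 0.0933 over all genes, 0.0769 to 0.365 under the alternatives), and it ran from -0.93 to -0.80 as each array was left out. The gene has 1 probe set on the array.

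Cox6b2, the testis form of a small cytochrome oxidase subunit, was the 1 other gene at an unadjusted p under 0.05. Its signal was 5.74 and 5.86 on the control arrays and 6.44 and 6.48 on the starved arrays, with no overlap. The log2 change was 0.66 ± 0.12 (SE, limma adjusted p = 0.141, 0.117 to 0.51 under the alternatives), or 1.58-fold, and 0.60 to 0.72 as each array was left out. All 4 values lay below the array medians. Its liver counterpart Cox6b1 read 13.44 and 13.41 on control arrays and 13.56 and 13.35 on starved arrays, which overlap.

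The promoter stretches of both genes are shown with those of 1 gene of each complex, the member with the smallest p that had a single window in the table and a match in the stretch, among the genes considered for printing. Each is 150 bases from the RefSeq promoter table of the mouse build GRCm38.p6, from 120 bases before the start of transcription to base 30 after it, written along the gene. Capitals mark matches to the letters GCATGCGC (NRF1), CCGGAAG (the ETS family, to which GABP belongs) or AAGATGGC (YY1) on either strand.
Ndufaf5, chr2:140170526-140170675, plus strand: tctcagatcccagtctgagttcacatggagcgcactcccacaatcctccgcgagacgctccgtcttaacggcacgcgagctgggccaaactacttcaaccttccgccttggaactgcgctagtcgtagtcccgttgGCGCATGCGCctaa
Cox6b2, chr7:4753065-4753214, minus strand: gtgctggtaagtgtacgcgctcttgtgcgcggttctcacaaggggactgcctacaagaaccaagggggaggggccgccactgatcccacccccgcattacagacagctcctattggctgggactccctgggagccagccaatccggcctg
Ndufa6 (complex I), chr15:82354262-82354411, minus strand: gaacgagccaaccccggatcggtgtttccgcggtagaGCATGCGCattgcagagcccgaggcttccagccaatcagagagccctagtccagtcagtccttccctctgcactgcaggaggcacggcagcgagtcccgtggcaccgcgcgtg
Uqcr11 (complex III), chr10:80406792-80406941, minus strand: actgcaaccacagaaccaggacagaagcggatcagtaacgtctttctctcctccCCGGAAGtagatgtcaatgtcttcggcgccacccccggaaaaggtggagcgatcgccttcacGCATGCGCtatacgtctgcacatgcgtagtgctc
Cox8a (complex IV), chr19:7217587-7217736, minus strand: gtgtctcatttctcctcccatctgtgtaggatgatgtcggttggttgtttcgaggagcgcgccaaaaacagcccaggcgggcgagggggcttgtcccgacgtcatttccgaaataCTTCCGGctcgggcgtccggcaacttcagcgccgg
Atp5e (ATP synthase), chr2:174464072-174464221, minus strand: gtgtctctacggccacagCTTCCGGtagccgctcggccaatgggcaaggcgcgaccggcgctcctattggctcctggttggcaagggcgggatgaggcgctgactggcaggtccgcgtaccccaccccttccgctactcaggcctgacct

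In the Ndufaf5 stretch the NRF1 letters were matched on both strands in 1 overlapping run that begins at transcribed base 17, and the Cox6b2 stretch held none of the 3 motifs. In the whole windows of 300 bases, 67 of the 80 genes had an entry and 30 of these (44.8%) held at least 1 of the 3 motifs, beside 23.5% of 9882 genes of the array with a window and 14.9% of all 27025 genes in the table. The NRF1 letters were in 14.9% of the members' windows, the ETS letters in 23.9% and the YY1 letters in 13.4%, beside 5.01%, 16.4% and 4.39% of the array's genes. A gene with several windows counts once when any of them matches, and both-strand matches of the NRF1 letters can overlap. The 30 genes with a match had a median log2 change of 0.05 and the 37 without one 0.06. A match describes the letters in the window and is not a measured binding site.

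Complex I, which oxidises NADH, had a median log2 change of 0.07 over 33 genes, with 26 above 0 and 7 below. The starved arrays both lay above both control arrays in 12 of them, or 36.4%, and both below in 5, or 15.2%, beside the 21.4% and 20.9% of all genes. Among all genes with a mean signal of 10 or more these shares were 27.4% and 29%. The 6 measured core subunits of the NADH and iron-sulfur arms of complex I had a median of 0.14. Ndufs7, which holds the last iron-sulfur cluster before ubiquinone, read 11.75 and 11.65 on control arrays, 12.18 on starved 1 and 11.83 on starved 2. The groups did not overlap, but the starved arrays were further from each other than starved 2 was from control 1, and the log2 change was 0.30 ± 0.15 (SE, limma adjusted p = 0.524).

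Ndufs1, the largest iron-sulfur subunit, read 10.75 and 10.61 on control and 10.87 and 10.85 on starved arrays. These groups did not overlap, and the log2 change was 0.18 ± 0.12. Ndufv2, another iron-sulfur subunit, read 12.20 and 12.21 against 12.45 and 12.29, a change of 0.17 ± 0.12 without overlap. Ndufv1, which binds NADH, read 11.86 and 11.89 against 12.17 and 11.83, so that the 2 starved mice fell on either side of the controls. Ndufs8 differed by -0.07 and Ndufs3 by 0.12, and the 95% intervals of these 5 changes all included 0.

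Accessory subunits of complex I, which surround the core, had a median log2 change of 0.06 over 27 genes and ranged from -0.17 for Ndufb1 to 0.24 for Ndufa7. Ndufa7 read 11.92 and 11.71 on control and 12.04 and 12.07 on starved arrays, a change of 0.24 ± 0.13 (limma adjusted p = 0.537). Ndufa9, a subunit beside the quinone site, read 11.83 and 11.72 against 12.05 and 11.89, and Ndufa6 read 12.04 and 11.87 against 12.18 and 12.09. In these 3 genes both starved arrays lay above both control arrays. The largest lower values after Ndufb1 were -0.16 for Ndufb6 and -0.15 for Ndufc1, both also without overlap on the probe set used. The other probe set of Ndufb6 had a change of -0.05 and that of Ndufc1 0.0016, both with overlapping groups. The remaining accessory subunits lay between -0.04 and 0.16.

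Complex III, which passes electrons from ubiquinol to cytochrome c, had a median log2 change of 0.09 over 8 genes. Of these 7 were above 0, and in 5 (62.5%) the starved arrays lay above both control arrays, beside 21.4% of all genes. That share was 27.4% among all genes with a mean signal of 10 or more. Uqcr10, a small subunit, read 12.00 and 11.85 on control and 12.25 and 12.05 on starved arrays, with a change of 0.22 ± 0.13 (SE, limma adjusted p = 0.594). Its 2 other probe sets had changes of -0.0096 and -0.011, and the mean of all 3 gave 0.067. Uqcrfs1, the Rieske iron-sulfur protein, read 12.17 and 12.06 against 12.28 and 12.24, a change of 0.15 ± 0.12. The core protein Uqcrc1 read 11.46 and 11.53 against 11.68 and 11.57, a change of 0.13 ± 0.12, and its partner Uqcrc2 read 12.42 and 12.46 against 12.54 and 12.44, a change of 0.06 ± 0.11. The first core protein was separated between groups and the other was not. The small subunit Uqcr11 had a change of 0.11 ± 0.11, and Uqcrh, Uqcrb and Uqcrq lay between -0.01 and 0.08.

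Complex IV, the cytochrome oxidase that reduces oxygen, had a median log2 change of 0.01 over 17 genes. Its 10 main isoforms had a median of 0.04 and ranged from -0.19 to 0.25. Cox4i1, the regulatory subunit that binds ATP, read 13.31 and 13.24 on control and 13.50 and 13.43 on starved arrays, a change of 0.19 ± 0.11 (SE, limma adjusted p = 0.599). Cox5a read 13.51 and 13.56 against 13.34 and 13.36, a change of -0.19 ± 0.11 (limma adjusted p = 0.593). On the probe sets used neither gene's groups overlapped, and the changes had opposite signs. The other Cox5a probe sets had changes of -0.07, with overlapping groups, and -0.08, without overlap. Cox5b had a change of 0.19 ± 0.13, also without overlap. Cox6a1, Cox6b1, Cox6c, Cox7a2, Cox8a and Ndufa4, a subunit first assigned to complex I, lay between -0.05 and 0.09 with overlapping groups. Cox7c was read from a probe set at 6.33 to 6.89, near the array medians, and its change was 0.25 ± 0.17.

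Isoforms of complex IV that belong to other tissues had a median log2 change of -0.04 over 6 genes. Of these 1 was higher and 2 lower on both starved arrays, beside 21.4% and 20.9% of all genes. As given above, none of the measured skeletal muscle markers had a mean above the array medians. Cox7a1 and Cox8b, forms of heart, skeletal muscle and brown fat, read 5.74 to 5.99 and 5.48 to 5.73 over the 4 arrays, below the array medians, and Cox8b was lower on both starved arrays, with a change of -0.14 ± 0.12. Cox6a2, the muscle partner of Cox6a1, read 6.92 to 7.13, above the array medians, and its change was 0.01 ± 0.13. Cox4i2, a form of lung and of low oxygen, read 5.46 to 5.65 and lay lower on both starved arrays, with a change of -0.13 ± 0.11. The testis form Cox8c read 8.05 to 8.30, also above the array medians, with overlapping groups. Cox7a2l, grouped apart from these, is a factor that joins complexes III and IV into supercomplexes and is known to be shortened in C57BL/6 strains. It read 11.09 and 10.97 on control and 11.23 and 11.26 on starved arrays. Its groups did not overlap, and the change was 0.22 ± 0.11 (limma adjusted p = 0.545).

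ATP synthase had a median log2 change of 0.01 over 17 genes, with 9 above 0 and 8 below. The 5 genes of the F1 head and central stalk, which carry out catalysis and rotation, had a median of 0.12, and 4 of them had both starved arrays above both controls, where 21.4% of all genes did. Among all genes with a mean signal of 10 or more 27.4% did. Atp5a1, the alpha subunit, read 13.03 and 12.92 on control and 13.21 and 13.16 on starved arrays, a change of 0.21 ± 0.11 (SE, limma adjusted p = 0.556). Atp5b, the catalytic beta subunit, read 13.22 and 13.25 against 13.34 and 13.37, a change of 0.12 ± 0.11. Atp5d, the delta subunit, read 13.04 and 13.05 against 13.22 and 13.14, a change of 0.13 ± 0.11, and Atp5c1, the gamma subunit, had 0.12 ± 0.12. The other Atp5c1 probe set, which lay below the array medians, had 0.61 ± 0.16. Atp5e, the epsilon subunit at the foot of the stalk, read 12.55 and 12.52 against 12.46 and 12.39, a change of -0.11 ± 0.11, and was the 1 member of the F1 part below 0.

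The peripheral stalk and membrane part of ATP synthase had a median log2 change of -0.02 over 9 genes, with 3 above 0 and 6 below. Atp5k, Atp5j and Atp5mpl (33.3%) lay lower on both starved arrays, with changes of -0.09 to -0.07, and Atp5pb (11.1%) higher on both, with 0.05. Over all genes 20.9% lay lower and 21.4% higher, and 29% and 27.4% of those with a mean signal of 10 or more. Other probe sets of Atp5k had changes of 0.015, with overlapping groups, and -0.22, without overlap. The other probe set of Atp5pb had -0.02 with overlapping groups. The difference between the F1 part and the rest of the enzyme was not tested. The c ring is built from a single mature protein that 3 genes encode with different targeting sequences. Of these, Atp5g3 read 13.86 and 13.79 on control and 13.99 and 14.01 on starved arrays, a change of 0.17 ± 0.11 (SE, limma adjusted p = 0.618). Atp5g1 read 12.43 and 12.25 against 12.41 and 12.20, and Atp5g2 read 11.17 and 11.01 against 11.05 and 11.17. Both of these overlapped between groups, with changes of -0.04 ± 0.14 and 0.01 ± 0.12.

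The assembly factors of complex I other than Ndufaf5 had changes of -0.17 to 0.12. Ndufaf1, part of the intermediate assembly complex, read 9.66 and 9.29 on control and 9.24 and 9.36 on starved arrays, a change of -0.17 ± 0.16. Control 1 stood above the other 3 arrays, and without it the change was 0.01. Ndufaf4 had a change of 0.12 ± 0.15, Ndufaf3 of -0.07 ± 0.11 and Ndufaf7 of 0.0061 ± 0.13, and of these genes only Ndufaf3 was separated between groups.

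The arrays of the starved group did not contribute equally. Relative to the control mean, the median member read 0.11 on starved 1 and -0.0012 on starved 2, while the controls read 0.03 and -0.03. Starved 1 exceeded starved 2 in 63 of the 80 members, beside 6152 of all 12393 genes. In complex I the medians were 0.14 and 0.02, in complex III 0.15 and 0.08, and in ATP synthase 0.06 and -0.05. The median change of the 80 genes was therefore 0.11 without starved 2 and -0.0012 without starved 1, where 40 genes were above 0 and 40 below. It was 0.08 without control 1 and 0.02 without control 2. Starved 1 also had the widest 3′ to 5′ gap for actin and for Gapdh, and the part of that in these values was not tested.

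**Figure D2:**
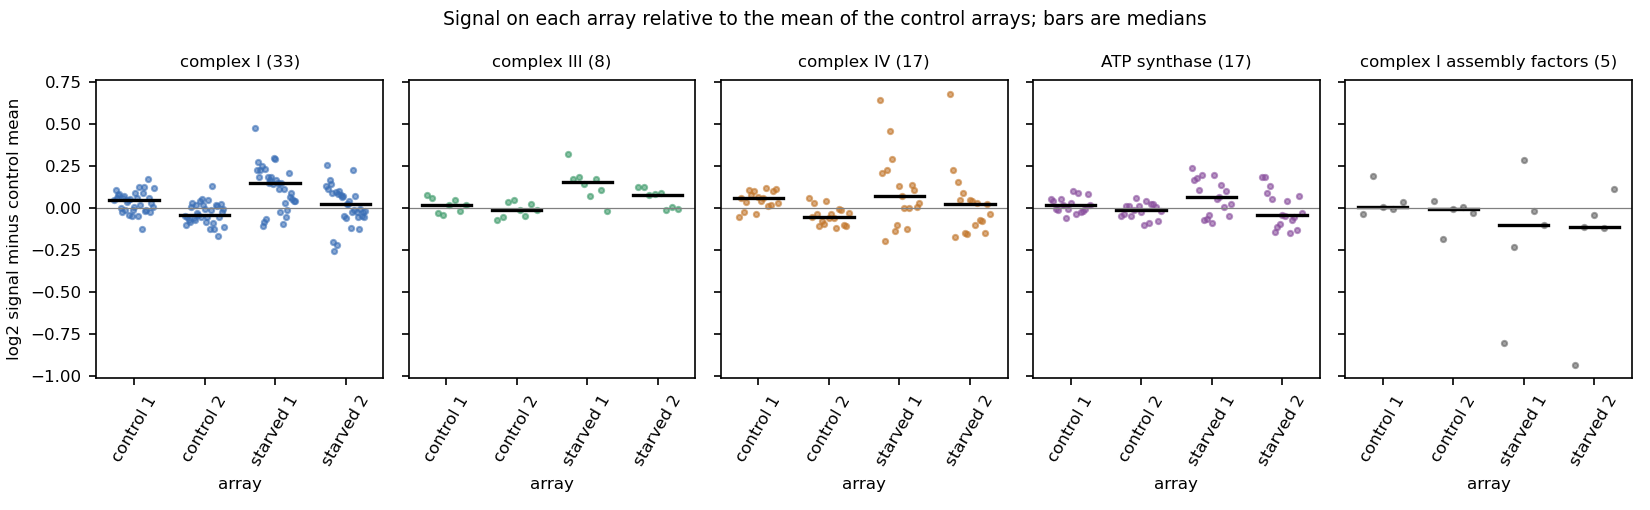
Log2 signal of each gene minus its mean on the control arrays, by array and by complex, with the median of each as a bar. Starved 1 has the highest median in complexes I, III and IV and in ATP synthase, and Ndufaf5 stands apart below on both starved arrays.

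Of the 80 genes 42 were read by several probe sets, which had changes of 1 sign in 26 genes and of both signs in 16. With every probe set tested on its own, 10 of the 149 (6.71%) had an unadjusted p under 0.05 in limma, 8 higher and 2 lower, beside 11.5% of all 20380 named probe sets, and 0 passed after adjustment. Ndufa7 had 5 probe sets, chosen for mention after their values were seen, with changes of 0.15 to 0.34, each higher on both starved arrays. Ndufa12, likewise chosen afterwards, had a change of 0.04 on the probe set used and of 0.30 to 0.40 on its 3 others. The probe sets of Ndufs4 disagreed, with 0.12 on the one used, 0.19 on another and -0.52 on the third. The 8 probe sets shared with another gene, which include those of Ndufb4, Ndufa11 and Ndufs6, had differences of -0.12 to 0.08.

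**Figure D3:**
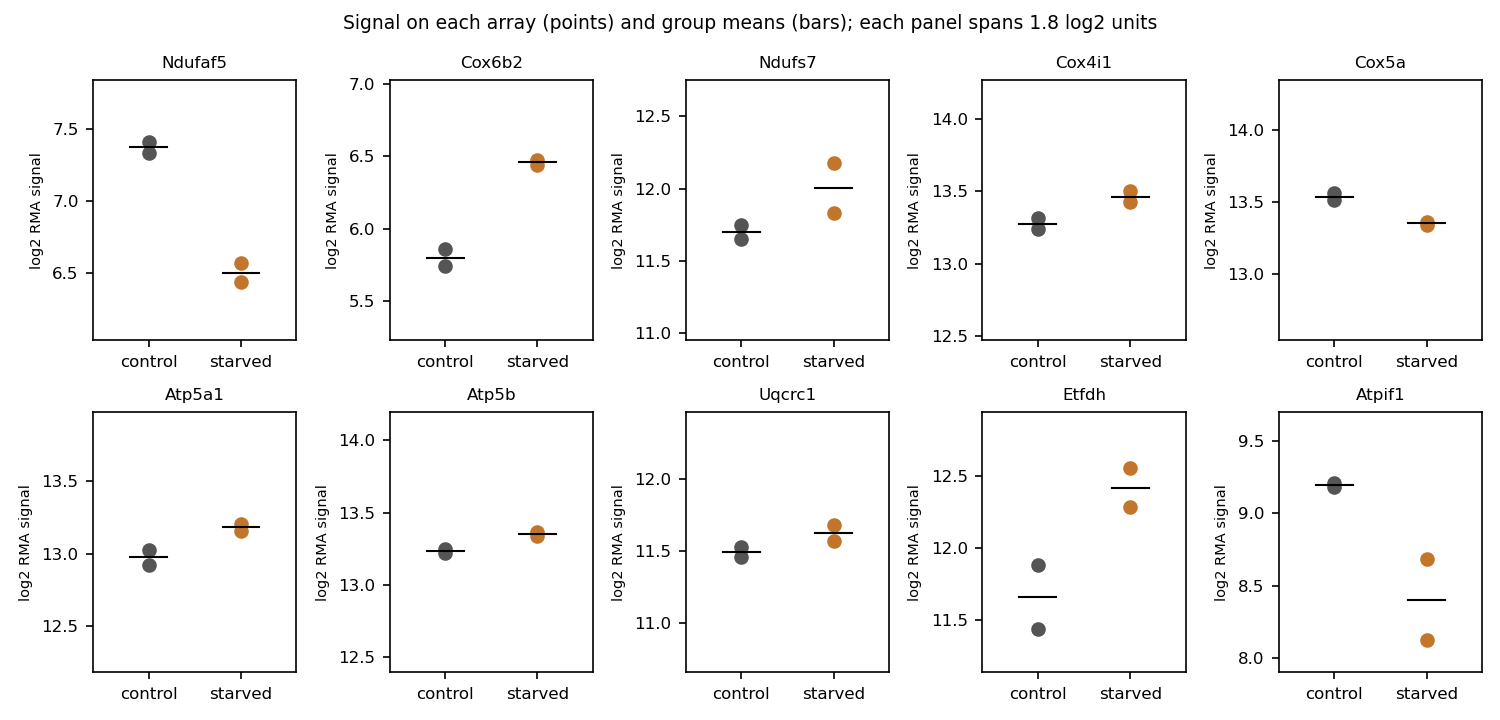
Log2 RMA signal of 10 genes on the control and starved arrays (points) with group means (bars), each panel spanning 1.8 log2 units. Ndufaf5 and Atpif1 are lower and Cox6b2 and Etfdh higher on both starved arrays. Cox4i1, Atp5a1, Atp5b and Uqcrc1 are also higher and Cox5a lower on both, with group means that differ by 0.21 or less.

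Other genes of the pathway were taken from lists that hold none of the 80. Of 13 measured genes of complex II and the electron carriers, 0 passed the adjusted test and the median log2 change was 0.07. At an unadjusted p under 0.05 in limma 2 of them (15.4%) were higher, beside 5.25% of all genes. Among all genes with a mean signal of 10 or more 170 of 1851 were higher at that level. The 2 higher genes of the list carry electrons from fatty acid oxidation to ubiquinone. Etfdh, the oxidoreductase that delivers them, read 11.88 and 11.44 on control and 12.28 and 12.56 on starved arrays, a change of 0.76 ± 0.19 (SE, limma adjusted p = 0.253). Etfb, of the electron transfer flavoprotein, read 12.61 and 12.40 against 12.79 and 12.86, a change of 0.32 ± 0.13 (limma adjusted p = 0.438). Sdha, the flavoprotein of complex II, had a change of -0.18 ± 0.12, and cytochrome c, Cycs, of 0.03 ± 0.15. The mitochondrially encoded subunit ND5 of complex I read 14.19 and 14.35 on control and 14.52 and 14.37 on starved arrays, a change of 0.17 ± 0.13.

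Of 22 measured genes in the assembly list, which also holds the inhibitor Atpif1, 0 passed the adjusted test, and the median was -0.11. At an unadjusted p under 0.05 in limma 3 (13.6%), Atpif1 among them, were lower and 0 higher, beside 6.02% and 5.25% of all genes. Atpif1, the protein that inhibits ATP hydrolysis by ATP synthase, read 9.21 and 9.19 on control, 8.12 on starved 1 and 8.68 on starved 2, a change of -0.79 ± 0.20 (SE, limma adjusted p = 0.253). Cox18, which inserts a cytochrome oxidase subunit into the membrane, had a change of -0.43 ± 0.13, and Acad9, an assembly factor of complex I, of -0.42 ± 0.15. Of 16 regulators 0 passed, 4 (25%) were higher at an unadjusted p under 0.05, beside 5.25% of all genes, and the median was 0.23. Ppargc1a had 1.01 ± 0.40, with 9.85 on starved 1 and 8.57 on starved 2 against 8.09 and 8.31 on controls, and without starved 1 its change was 0.37. The mitochondrial transcription factors Tfb2m and Tfb1m had 0.37 ± 0.12 and 0.33 ± 0.12, and the GABP subunit Gabpb1 had 0.29 ± 0.11. Tfam, which packages mitochondrial DNA, had 0.05 ± 0.11 and Nrf1 0.10 ± 0.12. The list of membrane exchange and uncoupling genes, 10 measured, had a median of 0.16, or 0.062 without control 2, and 0 at an unadjusted p under 0.05 in limma.

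Other gene lists can be set beside the respiratory chain on the same arrays. The interquartile range of the log2 changes was 0.15 for the 80 genes, 0.25 over all genes and 0.12 for cytosolic ribosomal proteins. Of 72 mitochondrial ribosomal protein genes 3 were higher and 3 lower at an unadjusted p under 0.05, with a median of -0.04 and an interquartile range of 0.21. These counts and those that follow stand beside 5.25% of all genes higher and 6.02% lower. Among the 1851 genes with a mean signal of 10 or more, 170 were higher and 202 lower at that level. The 6 ribosomal genes together are 8.33% of their list, beside 11.3% of all genes. Mrpl9 and Mrpl17 had changes of 0.49 and 0.43, and Mrpl49 of -0.45. Of 34 cytosolic ribosomal protein genes 1, Rps27, was higher at that level, and the median was 0.02. Of 12 tricarboxylic acid cycle genes 3 were higher, the ligase subunit Suclg1 with 0.39 ± 0.14, Dlst with 0.36 ± 0.13 and Idh3g with 0.35 ± 0.13, and the median was 0.23, or 0.13 without control 1 and 0.14 without starved 1. Of 16 genes of mitochondrial fatty acid oxidation 12 were higher at an unadjusted p under 0.05 and the median was 0.61, with 0.56 on starved 1 and 0.70 on starved 2. Of the 80 respiratory chain genes 78 had changes of -0.19 to 0.30, and 13 of the 16 fatty acid oxidation genes had a change of at least 0.3 in size. In none of these lists did a gene pass after adjustment, and the differences between lists were not tested.

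**Figure D4:**
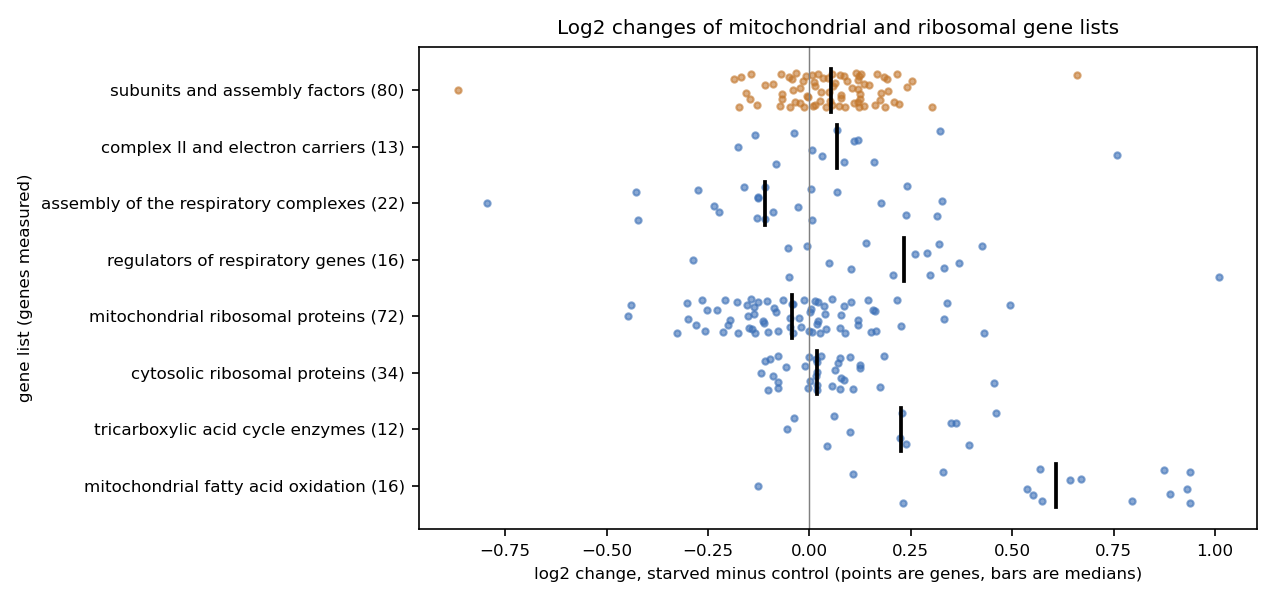
Log2 change of each gene (points) in the respiratory chain set and in 7 other lists, with medians as bars. The medians run from -0.11 for assembly genes through 0.05 for the respiratory chain set to 0.61 for mitochondrial fatty acid oxidation.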

How the data were processed

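The deposited values are log2 signals deposited by the authors, and per the submitters' processing notes they come from RMA in affy. The sources used here do not give versions or say whether other arrays were normalized together with these 4. RMA equalises the arrays' distributions and hides any shift shared by all transcripts. No detection calls were used. Of 22690 probe sets, 64 were array controls, 20380 had 1 symbol, 691 several and 1555 none; 20351 matched the RefSeq gene table of GRCm38.p6 by Entrez identifier.

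Starved and control arrays were compared over all 12393 genes with lmFit and eBayes in limma 3.58.1 (R 4.3.3), two-sided, with no covariate and Benjamini-Hochberg adjustment; total degrees of freedom were 5.71. The fit was tested on simulated data. With 4 arrays precision is limited, and p-values reflect variation among these mice alone. The labels give no batch, so none was fitted.

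The members and lists were chosen with earlier results of these data known. Named genes are the members with the smallest p in each group (6 for complex I, 4 for the others), the extremes of change and signal, fixed core subunits and tissue isoforms, and up to 3 genes of each further list. Of the 80 member probe sets used, 7 end in _x_at and 13 in _s_at and may read related transcripts. Alternatives were a common median, further quantile normalization, a filter of the dimmest 40%, the mean of all probe sets, removal of _x_at and _s_at, each array left out, eBayes with trend and robust, the replicate number as a block, other thresholds and all probe sets as the unit; trend and robust on their own were chosen after seeing the data. Promoter sequences are RefSeq's.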

Additional observations from a re-analysis of the deposited data

How the results depend on the processing

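The count of 0 genes past the adjusted limma test held under each alternative run, except that 1, Ndufaf5, passed at an adjusted p of 0.10. The 2 genes at an unadjusted p under 0.05 became 1 of 76 without the dimmest 40% of genes, which removes Cox6b2, and 4 of 75 without _x_at and _s_at probe sets; with 1 array left out the count was 2 to 3. The 41 genes whose groups do not overlap (51.2%, beside 42.2% of all genes) became 56 to 69 with 1 array left out. Fewer arrays make separation easier. Without starved 2, starved 1 lay above both controls in 51 members and below both in 18, beside 4454 and 4316 of all 12393 genes. Without starved 1, starved 2 did so in 29 and 30 members, beside 4289 and 4188 of all genes. For the settings without a control array the share over all genes is not given here, so those counts are not read as a result about the members. With all 4 arrays and a mean signal of 10 or more, 35 of 68 members and 1043 of all 1851 such genes did not overlap. The replicate numbers share only a number (correlation of same-numbered deviations 0.0171 over genes); with them as a replicate block the counts stayed 0 and 2, and every median was the same by construction. With 1 array left out, the fit takes the spread of a lone array from the other group, and the medians ran from -0.0012 to 0.11 for all 80 genes, from 0.022 to 0.14 for complex I, from 0.077 to 0.15 for complex III, from -0.035 to 0.077 for complex IV, from -0.045 to 0.061 for ATP synthase and from -0.11 to 0.014 for the assembly factors. The assembly factor median was -0.12 without _x_at and _s_at probe sets, where 4 remained. With 1 array left out the list medians ran from 0.0089 to 0.10 for complex II and carriers, from -0.10 to -0.052 for assembly genes, from 0.16 to 0.22 for regulators, from -0.066 to -0.018 for mitochondrial and 0.0099 to 0.028 for cytosolic ribosomal proteins, from 0.13 to 0.26 for the tricarboxylic acid cycle, from 0.062 to 0.22 for membrane exchange and from 0.45 to 0.79 for fatty acid oxidation.

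Of all 80 members 44 kept their sign under every alternative that gave a value, and the largest change among the other 36 was 0.17 in size. Of the 35 members chosen by the naming rule 24 kept it. With arrays left out, the ranges that cross 0 were -0.15 to 0.061 for Atp5g1, -0.068 to 0.092 for Atp5g2, -0.096 to 0.12 for Cox6a2, -0.15 to 0.10 for Cox7a1, -0.11 to 0.0094 for Cox7a2, -0.17 to 0.069 for Cox8c, -0.038 to 0.029 for Ndufa4, -0.36 to 0.014 for Ndufaf1, -0.043 to 0.28 for Ndufaf4 and -0.051 to 0.29 for Ndufv1. Cox6a1 turned to 0.028 with the mean of all probe sets, Ndufv1 to -0.037 without _x_at and _s_at probe sets, and Ndufa4 to 0.0036 with a common median and 0.0064 after quantile normalization. Of the other lists' genes, Gabpb1 turned to -0.037 with the mean of all probe sets and Sdha to 0.061 without _x_at and _s_at probe sets; the cause was not tested.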
